A study of Mus musculus with 62 samples.

Results

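The genes examined were the 8 listed neighbours of *Fam13a* on mouse chromosome 6, *Nap1l5*, *Herc3*, *Herc6*, *Ppm1k*, *Abcg2*, *Pyurf*, *Tigd2* and *Gprin3*, out of 48795 genes in the table of counts. They were chosen by position, within about 2 Mb of *Fam13a*, from a list drawn up when results of KO against WT in these libraries were already known. KO against WT values of the 8 genes are therefore a description, given with the share of all genes called and without p-values, and they support nothing beyond themselves. The question put to them was whether genes next to a targeted locus differ between KO and WT mice in fat and liver, and how they respond to a high-fat diet (HFD).

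RNA sequencing covered 62 libraries in 16 groups, 14 of them with 4 libraries and 2 of them, SAT and VAT of WT females, with 3. *Fam13a* KO mice came from embryonic stem cells of a knockout repository with exon 5 of *Fam13a* between loxP sites, and KO and WT mice were on a C57BL6 background. Male KO and WT mice on chow or HFD gave inguinal fat (SAT), gonadal fat (VAT) and liver, and female KO and WT mice on HFD gave SAT and VAT. Mice on HFD were 22 weeks old at death, after 14 weeks on the diet, and the age of the mice on chow is not given in the sources used here. The labels do not say which libraries came from the same mouse, replicate numbers here only follow the order of the samples, and p-values measure the spread between these libraries.

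Levels are given as CPM, library-scaled counts (TMM) that compare 1 gene between libraries, or as TPM, which also divide by exon length. Gene counts summed to 4959783 in the shallowest library and 28723319 in the deepest (median 21694089). Fat libraries carried the adipocyte hormone gene *Adipoq* at a median of 3531 TPM in SAT and 3359 TPM in VAT, against 0.0632 TPM in liver, where *Alb*, the gene of serum albumin, stood at 40950 TPM. Lymph node markers, 6 genes of lymphocytes and lymphoid tissue, had a mean log2 CPM of 4.15 to 5.93 in all 4 SAT libraries of WT males on chow. In KO males on chow the same score was -1.19 to 1.19 in 3 libraries and 5.402 in replicate 4, and elsewhere it passed 2 in replicate 2 of female HFD SAT KO (5.10) and replicate 2 of male HFD SAT WT (4.41). Epididymis markers scored 7.47 in 1 VAT library of KO males on chow and 7.97 in 1 of WT males on chow, and ribosomal RNA took over 30% of the counts of 5 libraries, up to 75.4%. In bulk tissue, fewer cells of a type and less RNA per cell cannot be told apart.

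Genes that lie side by side on a chromosome can share regulatory DNA, and in a line made by gene targeting they are inherited together with the targeted allele. *Nap1l5* is an intronless imprinted gene of the nucleosome assembly protein family, expressed from the paternal copy, and lies inside an intron of *Herc3*. *Herc3* and *Herc6* encode HECT-type ubiquitin ligases, of which mouse HERC6 attaches the interferon-induced modifier ISG15 to proteins. *Ppm1k* encodes the mitochondrial phosphatase that switches on the dehydrogenase of branched-chain amino acid breakdown. *Abcg2* encodes an efflux pump for urate and xenobiotics, *Pyurf* a mitochondrial protein that supports methyltransferases of coenzyme Q synthesis and complex I assembly, *Tigd2* a protein derived from a transposase, and *Gprin3* a partner of activated G proteins.

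On GRCm38 (mm10), *Fam13a* occupies chr6:58932090-59024549 on the minus strand. *Herc3* (chr6:58831465-58920398, plus strand) ends 11.7 kb from it, and the single exon of *Nap1l5* (chr6:58905233-58907076, minus strand) lies 25.01 kb away on the strand opposite to its host. *Tigd2* (chr6:59208870-59212033) is 184.3 kb away, *Abcg2* (chr6:58584523-58695676) 236.4 kb and *Gprin3* (chr6:59347226-59426294) 322.7 kb. *Pyurf* (chr6:57686576-57692078), *Herc6* (chr6:57581000-57664632) and *Ppm1k* (chr6:57506502-57535468) form a second cluster 1240, 1267 and 1397 kb away. The annotation holds 80 genes within 2 Mb, these 8 and 72 others, of which 67 never reached 100 counts in a library. Vomeronasal receptor genes make up 29 of the 80.

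Start regions were compared for the 3 genes that were called in SAT below and for *Herc3*, the host of *Nap1l5*, since whether neighbours share a kind of promoter is one way to see them as a group. RefSeq sequences of GRCm38.p6 run from 250 bases before to 50 after the start, 5′ to 3′ on the gene's strand, with every CG in capitals. The starts are those of RefSeq, and that of *Herc3* lies inside the gene as GENCODE places it. The windows cover chr6:58907077-58907376, chr6:58833450-58833749, chr6:57535438-57535737 and chr6:59426257-59426556, in the order printed.
Nap1l5: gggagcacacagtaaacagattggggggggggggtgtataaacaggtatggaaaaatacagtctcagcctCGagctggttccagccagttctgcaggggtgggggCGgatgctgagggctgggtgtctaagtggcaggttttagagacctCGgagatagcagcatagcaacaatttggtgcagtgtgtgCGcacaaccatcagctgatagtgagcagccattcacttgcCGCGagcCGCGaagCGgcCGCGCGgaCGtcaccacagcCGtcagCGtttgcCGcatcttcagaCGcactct
Herc3: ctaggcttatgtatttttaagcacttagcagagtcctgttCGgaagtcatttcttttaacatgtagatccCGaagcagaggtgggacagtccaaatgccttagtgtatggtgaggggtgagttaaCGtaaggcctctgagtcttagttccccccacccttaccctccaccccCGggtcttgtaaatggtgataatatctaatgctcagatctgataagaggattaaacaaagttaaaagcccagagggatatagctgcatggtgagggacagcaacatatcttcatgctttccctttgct
Ppm1k: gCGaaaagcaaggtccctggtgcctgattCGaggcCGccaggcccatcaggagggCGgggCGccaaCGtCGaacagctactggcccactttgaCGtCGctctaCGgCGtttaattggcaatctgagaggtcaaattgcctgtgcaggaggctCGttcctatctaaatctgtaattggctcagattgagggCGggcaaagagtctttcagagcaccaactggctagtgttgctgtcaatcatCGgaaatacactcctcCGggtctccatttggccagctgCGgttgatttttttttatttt
Gprin3: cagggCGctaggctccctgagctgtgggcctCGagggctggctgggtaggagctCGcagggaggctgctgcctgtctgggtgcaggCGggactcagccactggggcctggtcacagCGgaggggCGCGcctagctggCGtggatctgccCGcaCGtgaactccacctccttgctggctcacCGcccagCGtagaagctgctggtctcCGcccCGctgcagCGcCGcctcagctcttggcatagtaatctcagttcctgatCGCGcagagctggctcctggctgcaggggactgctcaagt

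*Nap1l5* held 17 CG pairs in this window, 15 of them in the last 150 bases, whereas its host *Herc3* held 4. *Ppm1k* had 16 and *Gprin3* 18. Among the 32851 mouse promoter windows in the same table, 31.4% had at least as many CG as *Nap1l5*, 33% as many as *Ppm1k*, 29.7% as many as *Gprin3* and 68.6% as many as *Herc3*, with a median of 7. *Pyurf* had 21, *Herc6* 4 and the 3 *Abcg2* starts 3, 10 and 28, and 7 of the 8 genes had an entry. The letters AGGTCA, part of nuclear receptor elements and searched on both strands, occurred in the windows of *Ppm1k*, *Herc6*, *Pyurf* and *Fam13a*, in those of *Abcg2* but for its middle start, and in 16.3% of all promoters. A match is a description of these letters only.

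Levels of *Nap1l5*, *Ppm1k* and *Gprin3* differed between KO and WT SAT, and edgeR called none of the other neighbours there in the main fit. In 23 SAT libraries of both sexes, with sex and diet as covariate, edgeR's quasi-likelihood test, fitted over all genes, called 796 of 18366 genes at an FDR of 10% (4.33%), and 3 of the 8 neighbours. *Nap1l5* stood 2.39-fold higher in KO, *Gprin3* 1.96-fold higher and *Ppm1k* at 0.732 of the WT level. *Fam13a* itself, the check of the labels, had a log2 fold change of -0.74 (SE 0.17) and was called. KO and WT ranges of *Fam13a* overlapped in 5 of 8 groups of tissue, sex and diet. The SAT call was lost in 6 of 18 alternatives, with lane (-0.81) or marker scores (-0.69) as covariates, in HFD alone (-0.62), chow alone (-0.99) and females alone (-0.40), and without the libraries of a lymph node score over 2 (-0.55). Its value in liver was -0.68 (SE 0.14), not called by edgeR in the main fit. In liver it was called by DESeq2 (-0.68) and by edgeR without the low-count filter (-0.68). The same held without libraries over 30% ribosomal RNA (-0.80) and without replicate 4 of KO males on chow (-0.81). Its counts did not vanish in KO, where they ranged from 795 to 4134 in SAT.

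*Nap1l5* was the neighbour with the largest difference and the lowest counts, 9 to 240 per SAT library. In SAT of males on HFD, the 4 KO libraries had 3.91, 3.00, 3.55 and 2.19 CPM and the 4 WT libraries 0.743, 1.11, 1.15 and 1.14 CPM. All 4 KO libraries lay above all 4 WT libraries. In females on HFD, KO had 5.997, 6.26, 9.94 and 6.57 CPM and WT 4.70, 4.12 and 2.73 CPM, again without overlap. In males on chow, KO had 4.70, 2.26, 7.70 and 4.66 CPM and WT 0.844, 1.74, 2.04 and 3.27 CPM, and here the lowest KO library fell below the highest WT library. The log2 fold change over the 23 libraries was 1.25 (SE 0.21, 95% interval 0.82 to 1.69). The share of all genes whose KO and WT libraries do not overlap was not counted, here or for the genes below.

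*Ppm1k* was lower in KO. In SAT of males on HFD, KO had 11.3, 13.5, 15.2 and 13.8 CPM and WT 20.4, 21.8, 19.3 and 19.5 CPM. Every KO library lay below every WT library. In males on chow, KO had 23.6, 19.99, 22.2 and 28.2 CPM and WT 32.6, 34.1, 27.0 and 31.8 CPM, with 1 KO library above the lowest WT library. In females on HFD, KO had 16.3, 19.8, 17.1 and 16.1 CPM and WT 21.2, 23.2 and 19.3 CPM, an overlap of the same kind. The log2 fold change was -0.45 (SE 0.075, 95% interval -0.61 to -0.29). The mean CPM of KO was below that of WT in all 6 groups of fat by depot, sex and diet.

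*Gprin3* was higher in KO SAT, with wide spread on chow. In SAT of males on HFD, KO had 165, 173, 147 and 146 CPM and WT 99.4, 90.5, 69.7 and 85.4 CPM, without overlap. In males on chow, KO had 188, 356, 302 and 85.2 CPM and WT 48.7, 111, 46.7 and 190 CPM. The lowest KO library there was replicate 4, the KO library with a high lymph node score, and the groups overlapped. In females on HFD, KO had 140, 99.8, 111 and 190 CPM and WT 37.8, 67.4 and 123 CPM, with overlap. The log2 fold change was 0.97 (SE 0.25, 95% interval 0.45 to 1.49). With adipocyte and lymph node scores as covariates it was 0.49 and with lane as covariate 0.88, and the gene was not called in either fit.

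**Figure D1:**
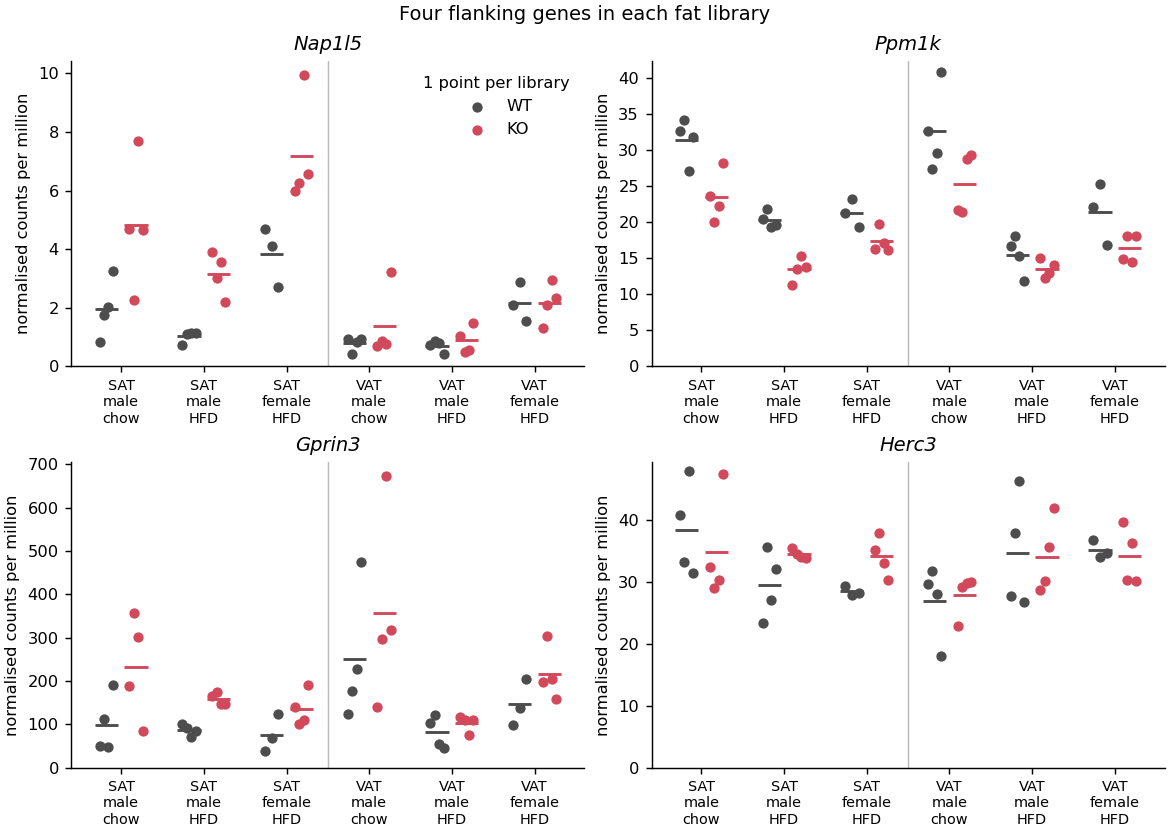
Normalised CPM (y axes, starting at 0) of *Nap1l5*, *Ppm1k*, *Gprin3* and *Herc3* in each SAT and VAT library, by depot, sex and diet, with WT in grey and KO in red and a horizontal bar at each mean. In SAT of males on HFD the KO points of *Nap1l5* (2.19 to 3.91) lie above the WT points (0.743 to 1.15), and those of *Ppm1k* (11.3 to 15.2) below (19.3 to 21.8), while *Herc3* overlaps.

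The other 5 neighbours had log2 fold changes in SAT that edgeR did not call in the main fit. *Pyurf* had 0.36 (SE 0.12), *Abcg2* 0.17 (SE 0.092), *Herc3* 0.097 (SE 0.10), *Tigd2* -0.050 (SE 0.080) and *Herc6* -0.30 (SE 0.14). For *Pyurf*, the difference was mostly on chow, where KO males had 10.2, 5.75, 8.36 and 5.27 CPM and WT males 5.44, 3.73, 4.06 and 4.41 CPM. The lowest of these KO libraries was again replicate 4. *Pyurf* was called by DESeq2 (0.35), with 6 surrogate variables (0.36), without replicate 4 of KO males on chow (0.39) and without replicate 2 of KO females on HFD (0.40). *Herc6* was called in males alone (-0.50). *Herc6* had 10.7, 8.99, 8.86 and 17.6 CPM in KO males on chow and 18.3, 14.9, 21.7 and 18.8 CPM in WT, so that only KO replicate 4 reached the WT range. In SAT of males on HFD, *Herc6* had 11.7 to 13.3 CPM in KO and 11.6 to 16.8 CPM in WT, which overlapped. The lymph node score separated the same libraries in SAT of males on chow, and all 6 of its markers had a log2 fold change below 0 in the 23 SAT libraries (median -1.66, none called by edgeR). Without the libraries of a lymph node score over 2, the values were 1.27 for *Nap1l5*, -0.47 for *Ppm1k* and 0.92 for *Gprin3*, all called, *Herc3* was called at 0.26, and *Fam13a* was not called (-0.55). That fit holds no SAT library of WT males on chow, so its KO values rest on the HFD libraries. In chow libraries alone, which share 1 lane, edgeR called 3 of 15636 genes and no neighbour, with 1.25 for *Nap1l5* and -0.45 for *Ppm1k*, and in females alone 1 of 16665 genes and no neighbour, with 0.88 and -0.29. A single lane carried the 4 KO libraries of female SAT together with 1 of the 3 WT libraries.

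Markers of other cell types in SAT had few calls between KO and WT. Higher in KO were 1 of 6 adipocyte markers (*Cidec*, 0.46, list median 0.42) and 1 of 4 of brown or beige fat (*Cox8b*, 0.88, median 0.73). Lower was 1 of 5 genes of the hepatocyte list (*Cyp2e1*, -0.67, median -0.081). *Cyp2e1* had a median of 274.7 TPM in SAT, so its value there cannot be read as one of hepatocytes. The rest of that list had 31.2 (*Alb*), 2.03 (*Apoa1*), 1.09 (*Ttr*) and 0.949 TPM (*Serpina1a*). No marker of macrophages (5 tested, median 0.21), duct epithelium (5, median 0.44), skeletal muscle (4, median -4.68) or mesothelium (1, -0.38) was called by edgeR. Epididymis markers were tested over both depots of males, where *Lcn5* was called at 6.95. Their part in the results was not tested.

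*Herc3*, 11.7 kb from *Fam13a* and host of *Nap1l5*, differed little in the main fit. In SAT of males on HFD it had 33.9 to 35.5 CPM in KO and 23.4 to 35.7 CPM in WT, and on chow 29.04 to 47.6 CPM in KO and 31.5 to 47.9 CPM in WT. In females on HFD, KO had 35.2, 38.0, 33.0 and 30.4 CPM and WT 29.4, 27.9 and 28.2 CPM, with KO above WT. Its 95% interval over the 23 libraries ran from -0.12 to 0.31 on the log2 scale. It was called with 6 surrogate variables (0.20) and without the libraries of a lymph node score over 2 (0.26). The strand setting of the counts is not given in the sources used here. In a count without strand, reads from the *Herc3* intron could enter the *Nap1l5* counts. Such a count would give 0 reads to a gene wholly covered by exons of the other strand. Of 416 such genes, 313 had counts, but only 17 averaged at least 10 counts per library. Coverage was taken from GENCODE M21, and the paper names another GENCODE release for its counts. These numbers therefore do not decide the strand setting. The part of such reads was not tested.

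Of the 7 other tested genes within 2 Mb of *Fam13a*, 1 was called in SAT, *A530053G22Rik*, 1254 kb away, with a log2 fold change of 0.55 (SE 0.16). The other 6 had values between -0.65 and 0.16 and were not called. Counting the 8 neighbours and without *Fam13a*, 4 of 15 genes tested within 2 Mb were called (26.7%), 6 of 45 within 5 Mb (13.3%) and 9 of 125 within 10 Mb (7.2%). The share of all genes tested was 4.33%. These windows are nested, and each holds the 3 called neighbours. With both depots of males fitted together, 2 of 15, 2 of 44 and 5 of 128 genes were called in these windows. The last is 3.91%, against 3.97% of all genes. *Herc3*, *Nap1l5* and *Tigd2* lie within 200 kb and had 0.097, 1.25 and -0.050, whereas *Ppm1k*, called at -0.45, is the most distant of the 8.

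**Figure D2:**
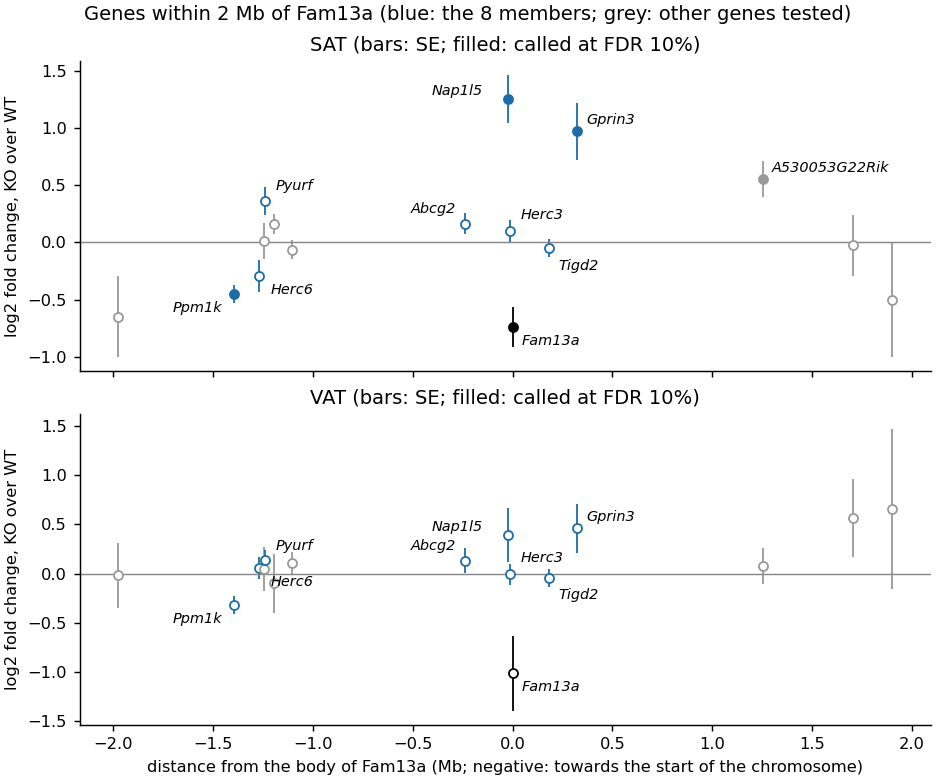
Log2 fold change of KO over WT (y axes) against distance from *Fam13a* in Mb (x axis) for tested genes within 2 Mb, in SAT above and VAT below, with bars of 1 SE. Blue marks the 8 listed genes, grey other genes and black *Fam13a*. Filled points were called at an FDR of 10%, and in SAT *Nap1l5* (1.25) and *Herc3* (0.097) sit at nearly the same position far apart in height.

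In VAT, 0 of the 8 neighbours were called in 23 libraries, where edgeR called 1 of 18975 genes (0.00527%). At an unadjusted p under 0.05, 1 neighbour and 1598 genes passed, and DESeq2 and limma-voom also called 0 neighbours. *Nap1l5* had a log2 fold change of 0.39 (SE 0.28) and *Gprin3* 0.46 (SE 0.25), with overlap in each group of sex and diet. *Ppm1k* had -0.32 (SE 0.093), with 14.9, 18.1, 14.5 and 18.04 CPM in KO females and 22.1, 25.2 and 16.9 CPM in WT females. The remaining 5 lay between -0.042 and 0.13. *Abcg2* alone had no overlap in a VAT group, with 23.9 to 32.3 CPM in KO males on HFD and 19.1 to 22.6 CPM in WT males on HFD. Over the 23 VAT libraries its value was 0.13 (SE 0.13) and not called. The share of all genes without overlap was not counted. *Fam13a* had -1.01 (SE 0.38) and was not called either.

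In liver, 7 of the 8 could be tested, and 0 were called among 14476 genes, of which edgeR called 0 (0%) and 1416 passed an unadjusted p under 0.05, none of them a neighbour. DESeq2 and limma-voom called 0 neighbours as well. *Nap1l5* had 0 to 5 counts per liver library and was not tested. *Ppm1k* had a log2 fold change of 0.0016 (SE 0.084, 95% interval -0.18 to 0.18). *Gprin3* had -0.061 (SE 0.12), and the other 5 lay between -0.19 and 0.094.

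When both depots of males were fitted together (32 libraries, covariates diet and depot), 736 of 18561 genes were called (3.97%) and 2 of the 8 neighbours, *Nap1l5* (1.02, SE 0.24) and *Ppm1k* (-0.40, SE 0.076). *Gprin3* had 0.72 (SE 0.26) and was not called by edgeR, but was by DESeq2 (0.71), and by edgeR without replicate 4 of SAT of KO males on chow (0.77) or replicate 4 of VAT of WT males on chow (0.89). Without the 6 libraries of a lymph node score over 2, 0 neighbours were called and 2 of 18939 genes, with log2 fold changes of 0.94 and -0.40 for *Nap1l5* and *Ppm1k*. These libraries include every SAT library of WT males on chow.

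**Figure D3:**
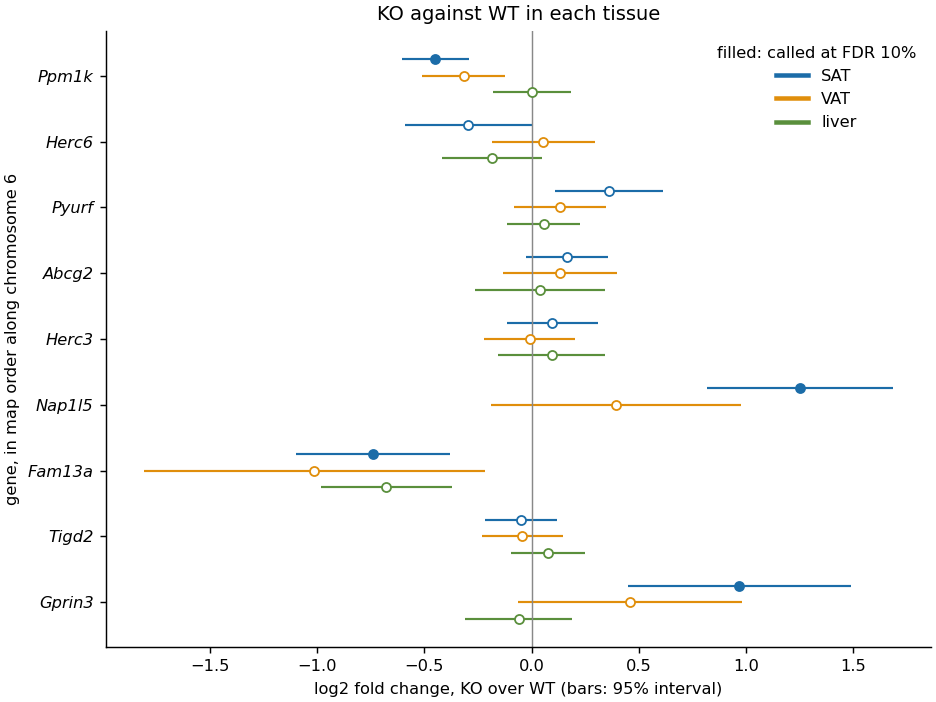
Log2 fold change of KO over WT (x axis) with its 95% interval for *Fam13a* and the 8 listed genes in map order (y axis), in SAT (blue), VAT (orange) and liver (green). Filled points were called at an FDR of 10%, which holds for *Nap1l5* (1.25), *Gprin3* (0.97), *Ppm1k* (-0.45) and *Fam13a* (-0.74) in SAT and for no neighbour in VAT or liver.

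The difference between the KO effects on HFD and on chow was tested as an interaction in males. In SAT, edgeR called 3 of 17292 genes (0.0173%) and 0 neighbours, with 0 at an unadjusted p under 0.05. In VAT it called 1 of 17330 genes (0.00577%) and 0 neighbours, with 2 at an unadjusted p under 0.05, *Herc6* and *Tigd2*. In liver it called 0 of 14476 genes (0%) and 0 neighbours, with 0 neighbours and 928 genes at an unadjusted p under 0.05. The difference between SAT and VAT in the KO effect was called for 1 of 18561 genes (0.00539%) and 0 neighbours, with 1, *Herc6*, at an unadjusted p under 0.05. DESeq2 and limma-voom called 0 neighbours in each of these 4 tests. The tests miss small differences: in simulated data, 1 of 67 genes with a 1.5-fold difference was called by diet in SAT and 9 of 67 by depot. For *Nap1l5*, the KO effect was 0.85 higher in SAT than in VAT on the log2 scale (95% interval -0.11 to 1.82), and for *Ppm1k* it was -0.23 (95% interval -0.52 to 0.068).

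One library decided the SAT interactions. Without replicate 4 of KO males on chow, the interaction with diet was called for *Herc6* (0.70, SE 0.20), *Herc3* (0.56, SE 0.21) and *Pyurf* (-0.72, SE 0.28). Over all genes, 5142 of 17590 were called, against 3 of 17292 with that library. The interaction with depot was called for *Herc6* (-0.66, SE 0.16). There 2160 of 19337 genes were called, against 1 of 18561 with that library. The added calls were thus not particular to the neighbours. Without that library the lymph node score in SAT of males on chow had no overlap between KO and WT. The part of the lymph node in these interactions was not tested.

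The pathway partners of the neighbours were counted in the same SAT comparison, where 3.45% of all genes were called higher in KO and 0.888% lower. Of 25 genes of branched-chain amino acid breakdown, the pathway that *Ppm1k* switches on, 2 were higher, *Slc25a44*, a mitochondrial carrier of these amino acids (0.34, edgeR adjusted p = 0.029), and *Bcat1*, a cytosolic aminotransferase (0.88, edgeR adjusted p = 0.0888). None was lower, and the median log2 fold change of the list was 0.20, against -0.0051 over all genes. Of 18 genes of coenzyme Q synthesis and complex I assembly, with which *Pyurf* acts, 3 were higher, *Coq7* (0.56, edgeR adjusted p = 0.0272), *Ndufaf4* (0.30, edgeR adjusted p = 0.0724) and *Coq6* (0.30, edgeR adjusted p = 0.0987), and 0 lower (median 0.14). Of 24 genes of GPI anchor synthesis, *Gpaa1* was higher (0.27) and *Pigw* lower (-0.30), with a median of 0.0054.

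Of 30 interferon-stimulated genes, the company of *Herc6*, 0 were called by edgeR in SAT, though 29 lay below 0 with a median of -0.18, as did 26 in liver with a median of -0.18, and in VAT 23 lay above 0 with a median of 0.087. Of 27 tested imprinted genes, the class of *Nap1l5*, *Impact* was higher (0.26) and *Zrsr1* lower (-0.27), with a median of 0.10. No called gene was found among 12 efflux transporters related to *Abcg2* (median 0.15), 3 HERC ligases (-0.014), 3 nucleosome assembly proteins (0.17), 2 TIGD proteins (0.13), 1 GPRIN protein (0.51) or the FAM13 paralogues *Fam13b* and *Fam13c* (-0.16). In VAT and liver, 0 genes of any of these lists were called.

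On HFD, *Ppm1k* was lower in all 3 tissues, *Gprin3* lower in VAT and *Herc6* higher in liver. HFD was compared with chow in males, 8 libraries against 8 per tissue, with genotype as covariate. In SAT, 10036 of 17292 genes were called (58.0%), and 4 of the 8 neighbours. In VAT, 7653 of 17330 were called (44.2%), and 3 of the 8. In liver, 5912 of 14476 were called (40.8%), and 3 of the 7 tested. The calls of neighbours are thus near the shares of all genes. The share of all genes whose chow and HFD libraries do not overlap was not counted. Libraries of mice on chow and on HFD were sequenced on different lanes, so diet and lane cannot be told apart. The age of the mice on chow is not given, so the part of age in these values is not known either. In SAT, leaving out the libraries of a lymph node score over 2 removes all 4 libraries of WT males on chow. The diet values of that fit therefore rest on KO libraries alone.

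*Ppm1k* fell on HFD in all 3 tissues. In SAT of WT males, the 4 chow libraries had 27.0 to 34.1 CPM and the 4 HFD libraries 19.3 to 21.8 CPM, and in KO they had 19.99 to 28.2 and 11.3 to 15.2 CPM. In VAT of WT males, chow libraries had 32.6, 27.3, 29.5 and 40.8 CPM and HFD libraries 16.7, 18.1, 15.2 and 11.9 CPM, and in KO 21.4 to 29.3 and 12.2 to 15.0 CPM. In fat, HFD lay below chow without overlap in all 4 groups of depot and genotype. The log2 fold change was -1.02 in VAT (SE 0.12, edgeR adjusted p = 2.02e-05), -0.73 in SAT (SE 0.088, edgeR adjusted p = 4.26e-05) and -0.25 in liver (SE 0.084, edgeR adjusted p = 0.0294). In liver, *Ppm1k* had 279 CPM in replicate 3 of KO males on HFD, where ribosomal RNA took 75.4% of the counts, and without the libraries over 30% ribosomal RNA its value was -0.19 and not called. It was not called in WT alone (-0.21) or KO alone (-0.28) either.

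*Gprin3* fell 3.35-fold on HFD in VAT (log2 fold change -1.74, SE 0.33, edgeR adjusted p = 0.000865). Chow libraries had 124, 176, 228 and 475 CPM in WT and 140, 297, 673 and 317 CPM in KO, and HFD libraries 103, 121, 55.4 and 44.5 CPM in WT and 116, 111, 75.7 and 111 CPM in KO. HFD lay below chow in both genotypes without overlap. In SAT its log2 fold change was -0.39 (SE 0.30) and in liver 0.14 (SE 0.12), neither called by edgeR. Without the libraries of a lymph node score over 2, the SAT value was -0.86 and called (edgeR adjusted p = 0.0163), with KO libraries alone left on chow. Without those over 30% ribosomal RNA, or without replicate 1 of KO males on chow, the liver value was called at 0.25 and 0.24. Macrophage markers moved in VAT as well, where their mean log2 CPM was 5.14 to 6.81 on chow and 7.31 to 8.91 on HFD, with 5 of 5 called higher, and 5 of 6 adipocyte markers were called lower and *Lep* higher (2.16). Also called lower were 3 of 3 epididymis markers (median -12.3), 4 of 4 of duct epithelium (-3.04) and 3 of 4 of mesothelium (-0.94). Their part in the result was not tested.

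*Nap1l5* fell on HFD in SAT (-0.78, SE 0.26, edgeR adjusted p = 0.0229), from 0.844 to 3.27 CPM on chow to 0.743 to 1.15 CPM on HFD in WT and from 2.26 to 7.70 to 2.19 to 3.91 CPM in KO, with overlap in both genotypes. The call was lost without the libraries of a lymph node score over 2 (-0.66, edgeR adjusted p = 0.238) and in KO alone (-0.65). In VAT its value was -0.39 (SE 0.36) and not called. *Tigd2* fell in VAT (-0.35, SE 0.12, edgeR adjusted p = 0.0341) and in liver (-0.28, SE 0.080, edgeR adjusted p = 0.0105). In VAT of WT males it had 25.9 to 28.1 CPM on chow and 14.3 to 20.6 CPM on HFD, and in KO 14.9 to 26.1 and 18.2 to 21.4 CPM. The lowest KO chow library is the one with epididymis markers, and the VAT call was lost in KO alone (-0.12) and without the low-count filter (-0.28). The liver call was lost in WT alone (-0.19).

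*Herc6* rose on HFD in liver (0.48, SE 0.11, edgeR adjusted p = 0.00185). Chow livers had 24.4, 19.3, 16.4 and 16.1 CPM in WT and 12.5, 16.9, 16.3 and 20.1 CPM in KO, and HFD livers 27.8, 33.1, 24.9 and 27.8 CPM in WT and 24.7, 21.9, 29.5 and 23.4 CPM in KO. Every HFD liver lay above every chow liver of its genotype. In KO livers alone the value was 0.43 and not called. Of the 30 interferon-stimulated genes, 22 were called higher and 0 lower in liver (median 0.49), among them *Zbp1*, a nucleic acid sensor (0.97, SE 0.14), and *Ddx58*, the RNA sensor RIG-I (0.47, SE 0.068). In VAT, 15 of the 30 were called higher, led by *Oas1a* (1.75, SE 0.23), while *Herc6* had 0.15 (SE 0.15). In SAT, 11 were higher and 8 lower, and *Herc6* had -0.13 (SE 0.15). Of all genes, 20.65% were called higher in liver, 20.95% in VAT and 28.46% in SAT.

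*Abcg2* rose in SAT (0.33, SE 0.12, edgeR adjusted p = 0.0342), from 19.5 to 36.9 CPM in the 8 chow libraries to 26.1 to 45.2 CPM in the 8 HFD libraries, which overlapped. The call was lost without the libraries of a lymph node score over 2 (0.19, edgeR adjusted p = 0.393), in WT alone (0.29) and in KO alone (0.32). *Pyurf* was called at 0.34 (SE 0.16, edgeR adjusted p = 0.0866), and without the libraries of a lymph node score over 2 it was -0.089. Its call was also lost in 8 of 13 alternatives, among them the upper quartile (0.29), no low-count filter (0.33) and KO alone (0.026). Leaving out 1 library lost it in 12 of 16 fits. In SAT all 6 lymph node markers were called lower on HFD (median -3.82). *Herc3* was not called by edgeR, with values of -0.21 in SAT, 0.30 in VAT (edgeR adjusted p = 0.103) and -0.093 in liver. In VAT it was called by DESeq2 (0.32, adjusted p = 0.057) and limma-voom (0.32, adjusted p = 0.0877) and in 8 of 14 alternatives in all.

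**Figure D4:**
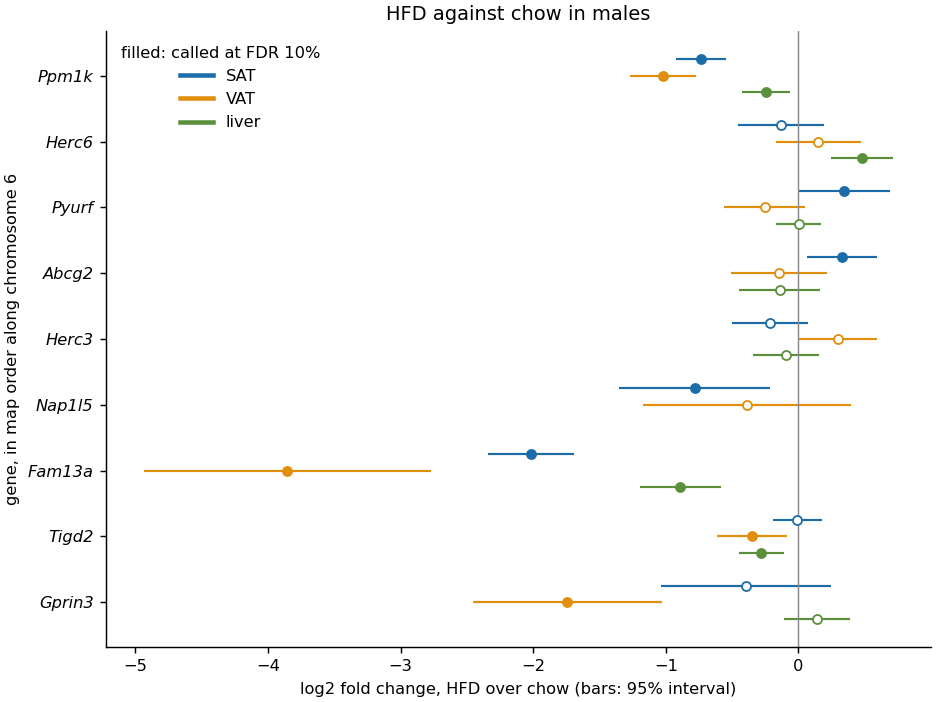
Log2 fold change of HFD over chow in males (x axis) with its 95% interval for *Fam13a* and the 8 listed genes in map order (y axis), in SAT (blue), VAT (orange) and liver (green). Filled points were called at an FDR of 10%. *Ppm1k* lies left of 0 in all 3 tissues (-0.73, -1.02 and -0.25) and *Gprin3* is filled at -1.74 in VAT, and the values of *Fam13a* are -2.02, -3.86 and -0.89.

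The lists around the other neighbours were mixed on HFD. Of all genes, 28.46% were called higher and 29.58% lower in SAT. The shares were 20.95% and 23.21% in VAT, and 20.65% and 20.19% in liver. Of 25 genes of branched-chain amino acid breakdown, 14 were called lower and 1 higher in VAT (median -0.42), led by *Bckdhb* (-1.24, SE 0.18), a subunit of the dehydrogenase that *Ppm1k* acts on, *Aldh6a1* (-1.17, SE 0.19) and *Acadsb* (-0.94, SE 0.16). In SAT, 10 were higher and 1 lower (median 0.16), led by *Bcat1* (3.17, SE 0.33), and in liver 13 of 24 were higher and 2 lower (median 0.21), led by *Hadh* (0.72, SE 0.085). Of 27 tested imprinted genes, 4 were higher and 13 lower in VAT (median -0.34), with *H19* at 3.25, and 11 higher and 5 lower in SAT. In liver, 2 of 23 were higher and 9 lower, with *Peg3* at -2.12 and *Peg10* at -1.90. Of 18 genes of coenzyme Q synthesis and complex I assembly, 6 were higher and 3 lower in SAT, 1 and 2 in VAT, and 8 and 1 in liver. Efflux transporters had 5 higher and 3 lower of 12 in SAT, 3 and 2 of 14 in VAT, and 4 and 3 of 14 in liver, with *Abcb1a*, a xenobiotic pump, at 2.28 in liver and -1.01 in VAT. GPI anchor genes had 7 and 7 of 24 in SAT, 3 and 5 in VAT, and 4 and 6 in liver. Among relatives of the neighbours, *Herc4* (-0.39) and *Herc1* (-0.21) were lower in SAT and both lower in liver (-0.18 and -0.24). *Nap1l3* (-1.16) and *Nap1l1* (-0.49) were lower in VAT, *Nap1l1* in liver too (-0.24), and *Tigd5* was higher in liver (0.70). *Fam13c* was higher (0.66) and *Fam13b* lower (-0.37) in SAT, and *Fam13b* was lower in liver (-0.28).

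Across tissues, *Ppm1k* and *Abcg2* were highest in liver and *Nap1l5*, *Herc3* and *Tigd2* lowest there. Per length, in 16 male libraries a tissue, *Ppm1k* stood at 96.7 ± 25.5 TPM in liver, 11.9 ± 3.18 TPM in SAT and 12.01 ± 5.50 TPM in VAT (SD, n = 16). *Abcg2* followed at 26.6 ± 8.64, 12.5 ± 3.82 and 10.2 ± 3.44 TPM. *Gprin3* was the most abundant neighbour of fat, at 57.3 ± 36.3 TPM in SAT and 77.7 ± 68.6 TPM in VAT, against 18.2 ± 5.63 TPM in liver. *Tigd2* had 26.1 ± 4.45, 24.2 ± 6.55 and 7.30 ± 1.69 TPM, *Herc3* 12.5 ± 3.00, 11.5 ± 4.24 and 2.10 ± 0.529 TPM, *Herc6* 5.10 ± 1.59, 3.52 ± 1.22 and 2.96 ± 1.05 TPM and *Pyurf* 6.11 ± 1.71, 5.26 ± 1.23 and 4.48 ± 1.16 TPM, in the order SAT, VAT and liver. *Nap1l5* was the least abundant, at 4.85 ± 3.21 TPM in SAT, 1.67 ± 1.03 TPM in VAT and 0.0605 ± 0.0638 TPM in liver. In SAT, *Ppm1k*, *Herc3* and *Abcg2* lay within each other's SD, and so did *Pyurf*, *Herc6* and *Nap1l5*.

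**Figure D5:**
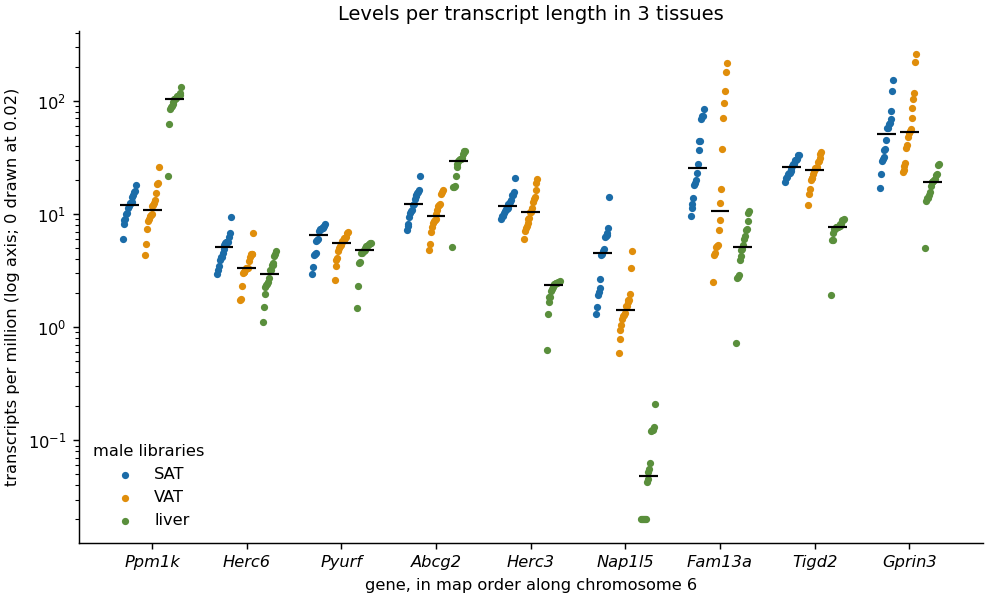
TPM (y axis, logarithmic, 0 drawn at 0.02) of *Fam13a* and the 8 listed genes in map order (x axis) in each male library, for SAT (blue), VAT (orange) and liver (green), with a bar at each median. *Ppm1k* is highest in liver (median 104.7) and *Nap1l5* lowest there (median 0.0489), and *Fam13a* and *Gprin3* spread most within VAT.

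The tissues were compared in 48 male libraries by edgeR's quasi-likelihood test on normalised counts. Male chow libraries of VAT, SAT and liver were on lanes 1, 2 and 3. On HFD no lane carried both liver and fat of males, so liver and lane cannot be told apart. Lane 4 alone carried both VAT and SAT of males, and the part of lane in these values was not tested. VAT against SAT called 7870 of 19424 genes (40.5%) and 3 neighbours, each lower in VAT, *Nap1l5* (-1.37, SE 0.27, edgeR adjusted p = 0.000124), *Herc6* (-0.54, SE 0.091, edgeR adjusted p = 1.76e-05) and *Abcg2* (-0.28, SE 0.12, edgeR adjusted p = 0.0701). The call of *Abcg2* was lost in chow alone (-0.077), without the low-count filter (-0.26), with library size alone (-0.31), without libraries of epididymis markers (-0.21) and without any of 3 single libraries, replicate 3 of SAT of KO males on chow (-0.25), replicate 4 of SAT of KO males on HFD (-0.25) and replicate 1 of VAT of KO males on chow (-0.23). Liver against SAT called 16357 genes (84.2%) and 7 of the 8, and liver against VAT 16195 genes (83.4%) and 8 of the 8. In liver against SAT, *Ppm1k* was 22-fold higher (log2 4.46, SE 0.089) and *Abcg2* 5.76-fold higher, while *Nap1l5* had a log2 fold change of -4.57 (SE 0.36), *Herc3* -1.13 (SE 0.097) and *Tigd2* -0.41 (SE 0.069). *Gprin3* had -0.14 (SE 0.20) and was not called.

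Liver RNA is dominated by a few transcripts, and the scaling moved these values. The median of all genes in liver against SAT was -0.17 with TMM, -0.37 with DESeq2's size factors, -0.46 with the upper quartile and -1.33 with library size alone. *Herc6* was higher in liver than in SAT with TMM (0.63, SE 0.092) and lower with library size alone (-0.57), and *Pyurf* went from 1.005 (SE 0.090) to -0.15. *Ppm1k* and *Abcg2* stayed higher and *Nap1l5*, *Herc3* and *Tigd2* lower under each of these scalings.

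The genes whose levels over the 16 group means were most like each neighbour were found by Pearson's r of log2 CPM among 20672 genes, as a description in which tissue dominates. *Herc6* was followed by *Rnf213* (r = 0.97) and *Mx2* (r = 0.94), and these were also its first by Spearman's rho. *Ppm1k* was followed by *Fastkd1* (0.996) and *Chuk* (0.99), *Abcg2* by *Tor1aip2* (0.99) and *Gm12909* (0.99), *Pyurf* by *Atp5g3* (0.98) and *Cisd1* (0.98), and *Herc3* by *Ccl8* (0.98) and *Adam19* (0.98). *Nap1l5* was followed by *Tmem132c* (0.96) and *Aknad1* (0.96), *Tigd2* by *Gm20257* (0.90) and *Cnst* (0.90), and *Gprin3* by *Gm43585* (0.82) and *Xrcc3* (0.81). Between neighbours, r ran from -0.95 for *Herc3* and *Ppm1k* to 0.97 for *Ppm1k* and *Abcg2*. *Nap1l5* and its host *Herc3* had 0.87 over the 16 means, although only *Nap1l5* was called between genotypes in the main SAT fit. *Gprin3* had values from -0.26 to 0.21 with the other neighbours.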

How the data were processed

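Bulk RNA from SAT, VAT and liver was sequenced with a stranded library kit. The authors deposited 1 table of read counts per gene, not normalised, made per the submitters' processing notes with STAR 2.5.3a on mm10. The strand column of the counts is not given in the sources used here. A count without strand would give 0 reads to a gene wholly covered by exons of the other strand. Of 416 such genes, 313 had counts and 103 had 0, and 17 averaged at least 10 counts per library. Coverage was taken from GENCODE M21, and the paper names another GENCODE release for its counts, so this does not decide the strand setting. Every column of the table matched 1 sample by its label (0 columns left unassigned).

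From the counts, edgeR 4.0.16 (R 4.3.3, limma 3.58.1) was run with TMM, filterByExpr, a prior count of 2 for log2 values and a quasi-likelihood test over all genes, called at an FDR of 10%. KO against WT carried sex and diet as covariate, HFD against chow genotype, and interactions and tissues were contrasts of group means. Symbols came from GENCODE M21 and fitted 48435 of 48795 genes. Alternatives were DESeq2 1.42.0, limma-voom, surrogate variables (sva 3.50.0), other filters and scalings, lane, marker scores, single sexes or diets and leaving out each library. The steps were tested on simulated data with known changes. Of 67 genes changed 1.5-fold, 32 were called for KO in SAT, 1 for KO by diet in SAT and 9 for KO by depot. Of 66 changed 3-fold, 52, 34 and 35 were called. False calls made up 13.9%, 22.2% and 11.4% of the calls, above the 10% set.

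The 8 neighbours, the 9 marker lists and the 11 gene lists were chosen with earlier results of these data known. The text names the neighbours, called genes within 2 Mb, up to 3 called genes per list by smallest p, and the 2 most similar genes. The 90 replicate pairs differed by more than counting noise (chi-square per degree of freedom at least 9.69). Library depth limits *Nap1l5* most. Counting error is covered by the spread between libraries. Some named genes of the lists are not reported here.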

Additional observations from a re-analysis of the deposited data

Results flagged for a closer look

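In groups of 4 libraries, 1 library stood apart from the other 3 by Dixon's criterion in 8 of 108 groups of gene and condition, where chance gives about 1 in 20. *Nap1l5* did so 3 times, at 9.94 CPM in SAT of KO females on HFD (replicate 3, others 5.997 to 6.57), at 0.743 CPM in SAT of WT males on HFD (replicate 1, others 1.11 to 1.15) and at 3.21 CPM in VAT of KO males on chow (replicate 4, others 0.693 to 0.858).

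*Herc3* had 22.9 CPM in VAT of KO males on chow (replicate 1, others 29.2 to 30.02), the library with epididymis markers. *Pyurf* had 11.2 CPM in liver of KO males on HFD (replicate 3, others 14.4 to 14.8), the library with 75.4% ribosomal RNA, and 5.17 CPM in SAT of KO females on HFD (replicate 2, others 6.95 to 7.23), a library with lymph node markers. In VAT of KO males on HFD, replicate 3 was low for *Tigd2* (18.1 CPM, others 21.2 to 21.4) and *Gprin3* (75.7 CPM, others 110.5 to 115.9). The part of these markers and of ribosomal RNA was not tested.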

How the results depend on the processing

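Numbers of neighbours called kept within 1.5 times in all alternatives but those below. The filter of at least 10 counts in every library left *Nap1l5* untested, as its lowest counts were 9 in SAT and 3 in VAT. On HFD in SAT, *Pyurf* was also not called with it (0.31). The cause of the other changes was not tested. KO against WT in SAT went from 3 to 5 with 6 surrogate variables and to 0 in chow libraries alone or females alone. In male SAT and VAT it went from 2 to 1 with at least 10 counts, and to 0 in HFD alone, chow alone or without libraries of a lymph node score over 2. HFD against chow went in SAT from 4 to 2 with at least 10 counts, 1 in KO alone and 2 without lymph node libraries, and in liver from 3 to 1 in KO alone. VAT against SAT went from 3 to 5 with the upper quartile.

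Leaving out each library gave 3 to 4 for KO in SAT, 0 in VAT and liver, 2 to 3 in male SAT and VAT, 3 to 4 for HFD in SAT, VAT and liver, 0 to 3 for the KO effect by diet in SAT, 0 in VAT and liver, 0 to 1 by depot, 2 to 5 for VAT against SAT, and 7 and 8 for liver against SAT and VAT. The 3 came without replicate 4 of SAT of KO males on chow, and the 5 without replicate 1 of SAT or replicate 2 of VAT of WT males on HFD.

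Reversed values were *Pyurf* on HFD in SAT without lymph node libraries (-0.089), *Fam13a* in VAT against SAT in chow alone (0.38), and, with library size alone, *Herc6* in liver against SAT (-0.57) and VAT (-0.0077) and *Pyurf* in liver against SAT (-0.15). Over all genes, KO against WT in SAT called 796, against 211 with lane, 217 with marker scores, 1628 with DESeq2 and 2487 in males alone. Alternatives on lane, single diets, ribosomal RNA, epididymis and lymph node content and library size alone were chosen after seeing the data. No paired analysis was possible because the labels give no replicate numbers (those used here follow the order of the samples) and do not link tissues of a mouse. At 9 to 240 counts, *Nap1l5* in SAT is the value that depth limits most.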
